A study of Mus musculus with 60 samples.

Results

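The solute carriers are membrane proteins that move amino acids, sugars, nucleosides, metals and other small molecules across the plasma membrane and the membranes of organelles. Their genes carry a symbol made of Slc, a family number, the letter a and a member number. Of 10122 genes in the expression table, 142 had such a symbol, and the 118 with a mean of at least 2 FPKM (fragments per kilobase of transcript and per M mapped fragments, an expression level per length) over all 60 libraries are described here. Among genes with such a symbol the mean level alone set the members, while the family itself was picked with earlier results of these data known. Just inside the limit stood Slc5a6 at 2.14, Slc25a33 at 2.10 and Slc52a3 at 2.00 FPKM, and just below it Slc22a15 at 1.90, Slc27a3 at 1.87 and Slc22a18 at 1.76 FPKM. Among the 118 members, 115 encode carriers. The other 3 share only the form of the symbol: Slc9a3r1 encodes the scaffold protein NHERF1, Slc4a1ap an adaptor protein, and Slc7a6os lies on the opposite strand of Slc7a6.

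All 20 groups were grown from 1 line of immortalised mouse fibroblasts, listed as Immortalized Ear Fibroblast GR NLS-iRFP-NLS. It arose by serial passage of ear cells from adult DKI mice and expresses fluorescent reporters of RelA and c-Rel, subunits of the transcription factor NF-κB, from the endogenous genes. Dishes kept overnight at 37 °C were moved to 24, 34, 37 or 40 °C for 2 h and were then lysed without cytokine, or received 10 ng/mL of IL-1β or of TNF-α and were lysed 1 or 3 h later. Each of the 20 groups had 3 biological replicates. Cells given a cytokine had thus spent 3 or 5 h at their temperature and unstimulated cells 2 h, and a response to a cytokine also holds those added hours. Every value comes from this single line.

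Most amino acid carriers at the cell surface are exchangers or sodium-coupled importers. Several members of the Slc7 family, but not all, are light chains that pair with the heavy chain Slc3a2. When amino acids run short or protein folding is disturbed, the transcription factor ATF4 raises many amino acid carriers together with enzymes of amino acid synthesis. TNF-α and IL-1β bind different receptors and both activate NF-κB within minutes.

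Measured here means present among the deposited genes, which are labelled as filtered, so an absent marker may have been filtered out. Fibroblast markers, 7 of 9 of which were measured, summed to between 4573 and 7118 FPKM in each library. Most of it came from Vim, Col1a2 and Col1a1, at means of 2362, 1133 and 1077 FPKM. The fibroblast markers Dcn and Lum were absent. Of the markers of keratinocytes, 1 of 6 was measured, with at most 4.13 FPKM. For macrophages 2 of 6 were measured and summed to at most 6.17 FPKM, for endothelium 1 of 4 at up to 2.5 FPKM, and for melanocytes 1 of 4 at up to 1.76 FPKM. The 2 muscle markers measured, of 4, summed to between 553.9 and 879 FPKM, nearly all of it Tagln at a mean of 683.5 FPKM, with Des at 0.84 FPKM, and the 3 chondrocyte markers, of 5, to between 11.7 and 24.3 FPKM. The spacing of low values gave estimated depths of 4.57 ± 0.51 M fragments for libraries at 24 °C (SD over 15), of 6.69 ± 0.59 M for those at 34 °C, of 6.35 ± 0.56 M at 37 °C and of 6.39 ± 0.77 M at 40 °C. Replicates correlated across genes at 0.969 to 0.983. Library numbers run from 46 to 60 at 24 °C and from 1 to 45 elsewhere, so preparation at another time, if it took place, cannot be told apart from 24 °C. In RNA from a whole dish, fewer cells of a kind and less RNA per cell cannot be told apart.

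The sequence before the start of Slc7a11, the cystine and glutamate exchanger, is printed because the gene fell or rose with temperature and cytokine, as described further on, and because 2 copies of the amino acid response motif TGATGNAA lie in it. The stretch runs from 112 to 13 bases before the annotated start, on the minus strand of chromosome 3 at chr3:50443626-50443725 of the RefSeq annotation of GRCm38.p6. Capitals mark the 2 motif matches, which lie on opposite strands with their first bases at -66 and -47.
Slc7a11: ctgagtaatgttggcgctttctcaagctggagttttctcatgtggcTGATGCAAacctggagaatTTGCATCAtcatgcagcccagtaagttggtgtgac
On either strand the motif was found in a window of 4.51% of 27025 genes, each window running from 250 bases before to 50 after a start. Of the 118 members, 92 had a window, and 3 of these (3.26%) held the motif, a share near that background. The other two were Slc1a4, a carrier of serine and alanine, and Slc50a1, a sugar carrier. Another 4 motifs were searched on both strands. The metal response letters TGCACNC or TGCGCNC lay in windows of 46.7% of the 92 members and 28.2% of genes, the antioxidant response letters TGACNNNGC in 25% and 14%, the heat shock letters GAANNTTC in 3.26% and 9.04%, and the kappa-B-like letters GGGANTTTC in 1 member, Slc37a4, and 1.29% of genes. The members were chosen by their level and the 27025 genes were not, so these shares set unlike sets side by side. Shares among genes of like level were not computed. A match describes letters in this window and shows no binding. Slc7a2, Slc7a5, Slc11a2 and Slc1a5 were among the members without a window, so no motif was searched for in them.

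Levels of the members spanned from 2.00 to 460 FPKM, with a median of 12.5 FPKM. The highest were 2 carriers of the inner mitochondrial membrane, Slc25a5, an exchanger of ADP and ATP, at a mean of 460 FPKM and the phosphate carrier Slc25a3 at 304 FPKM. They were followed by the nucleoside carrier Slc29a1 of the cell surface at 202 FPKM and the second ADP/ATP exchanger Slc25a4 at 188 FPKM. At the cell surface the amino acid carrier heavy chain Slc3a2 averaged 180 FPKM, its partner Slc7a5 131 FPKM and the taurine importer Slc6a6 131 FPKM. Slc25a39, the mitochondrial glutathione carrier, averaged 117 FPKM, the zinc importer Slc39a1 112 FPKM and Slc35a4 84.9 FPKM. In all, 9 members exceeded 100 FPKM and 47 lay under 10 FPKM. Substrate lists were formed by gene family and not by the substrate of each member. The 19 called amino acid carriers here are the Slc1a, Slc3a, Slc6a, Slc7a, Slc36a, Slc38a and Slc43a members. By list, the 11 zinc carriers had the highest median level at 22.5 FPKM, followed by 13.9 FPKM for the 19 amino acid carriers. The 14 sugar and monocarboxylate carriers had the lowest at 6.30 FPKM.

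**Figure D1:**
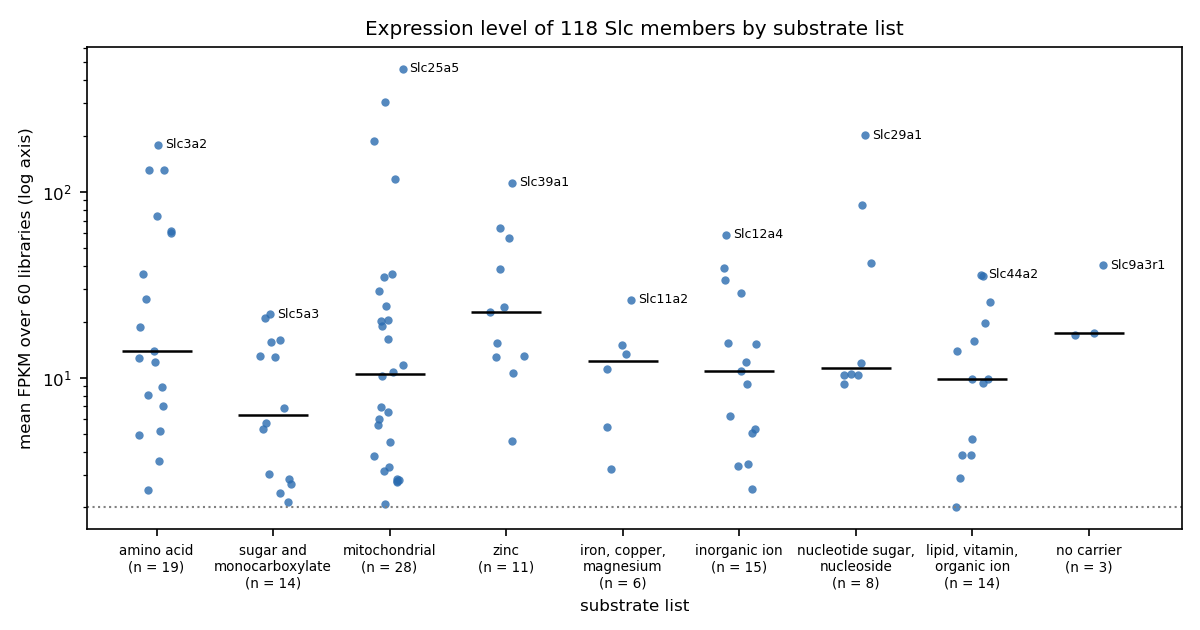
Mean FPKM over 60 libraries (log axis) of each of the 118 members, grouped by substrate list. Each point is a gene, each horizontal line the median of its list, and the dotted line the limit of 2 FPKM. Mitochondrial carriers span the widest range, from 2.10 to 460 FPKM, and the highest gene of each list is named.

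Variation between groups was modest for most members. The highest of the 20 group means was a median of 1.83 times the lowest, and at least 2 times the lowest for 46 members. The median coefficient of variation within a group was 11.1%. Differences were tested with limma on log2(FPKM + 1) in 1 fit over all 60 libraries, and a gene was called where the p-value adjusted over all 10122 genes (Benjamini-Hochberg) was below 0.05. All differences below are on this log2(FPKM + 1) scale, which understates changes of genes with few FPKM. In at least 1 of 30 comparisons 88 members were called, and 30 members were called in none, beside 6350 of all 10122 genes (62.7%) called in at least 1. Since 18 members had a group mean under 2 FPKM, the mean that chose them rested partly on their higher groups, and counts of members are descriptions. Backgrounds are shares of all 10122 genes, while members come from the 8140 genes with a mean of at least 2 FPKM. Shares over those 8140 genes alone were not computed.

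Temperature without cytokine moved few members except at 24 °C. After 2 h at 24 °C, 22 of 118 members were called against 37 °C, 5 higher and 17 lower, which is 18.6% beside a background of 20.7% of all genes (9.44% higher, 11.3% lower). At 40 °C, 3 members were higher and 6 lower, against a background of 4.14% (2.14% higher, 2% lower). That count fell to 4, 3, 4 and 2 without 37 °C replicate 1, 37 °C replicate 2, 40 °C replicate 1 and 40 °C replicate 3, and libraries rescaled to a common median ratio gave 5 higher and 4 lower. At 34 °C 2 members were called, both higher, beside a background of 0.366%, or 0.188% higher. They were the phosphate importer Slc20a1 and the cationic amino acid importer Slc7a1, and neither was called without 37 °C replicate 1 or 3 or without 34 °C replicate 1 or 2.

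Among cells given a cytokine for 3 h, with TNF-α and IL-1β averaged, 53 members were called at 24 °C against 37 °C, 12 higher and 41 lower. That is 44.9% of members, beside 40.8% of all genes, of which 17.6% were higher and 23.3% lower. At 40 °C, 9 members were higher and 23 lower, 27.1% beside a background of 15.9% (8.02% higher, 7.88% lower). At 34 °C, 8 were higher and 4 lower, 10.2% beside a background of 6.98% (2.61% higher, 4.38% lower), and the split became 12 higher and 3 lower with rescaled libraries. These 3 comparisons share the 37 °C libraries.

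Responses to TNF-α were broadest at 3 h. At 37 °C, 19 members rose and 14 fell, 28.0% beside a background of 14% (6.55% higher, 7.46% lower), and rescaled libraries gave 23 and 9. Without unstimulated 37 °C replicate 3, the count was 21 in place of 33. At 34 °C, 17 rose and 10 fell with a background of 12.6% (5.71% higher, 6.86% lower), and 17 in all were called without unstimulated 34 °C replicate 3. At 40 °C, 12 rose and 15 fell, beside 19.3% (9.91% higher, 9.36% lower). At 24 °C 2 members rose and none fell, beside a background of 2.42% (1.37% higher), and 1 was called without unstimulated 24 °C replicate 1 or TNF-α 3 h replicate 3. After 1 h of TNF-α, 2 members rose at 37 °C (background 2.99%, 2.3% higher), 2 at 34 °C (background 1.72%, 1.51% higher) and none at 24 °C (background 0.168%), where limma gave 14 members an unadjusted p under 0.05. The count was 1 at 37 °C without unstimulated replicate 3 and 4 with rescaled libraries, and at 34 °C it was 1 without unstimulated replicate 1 or TNF-α 1 h replicate 1. At 40 °C, 6 rose and 3 fell after 1 h, beside a background of 5.37% (3.02% higher, 2.35% lower). Rescaled libraries gave 8 and 1 there, and 5 members in all were called without unstimulated 40 °C replicate 1 or 2 or TNF-α 1 h replicate 1.

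Responses to IL-1β share the unstimulated libraries with those to TNF-α. After 3 h, 7 rose and 3 fell at 37 °C (background 4.35%, 2.42% higher and 1.93% lower), and 12 rose and 4 fell at 34 °C (5.28%, 2.66% and 2.62%). At 40 °C 8 rose and 11 fell (8.65%, 4.63% and 4.02%), and at 24 °C 3 rose (1.42%, 0.919% higher). The count at 34 °C was 9 or 10 without unstimulated 34 °C replicate 1 or 2, and the count at 40 °C was 12 without unstimulated 40 °C replicate 3 or IL-1β 3 h replicate 1. At 24 °C 1 member was called without any of the 3 unstimulated libraries or without IL-1β 3 h replicate 1 or 2. After 1 h, 1 member rose at 37 °C (background 1.88%, 1.57% higher), 1 at 34 °C (1.16%, 1.11% higher) and none at 24 °C (0.0494%), where 13 had an unadjusted p under 0.05 in limma, while 4 rose and 1 fell at 40 °C (3.16%, 2.2% higher and 0.958% lower).

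**Figure D2:**
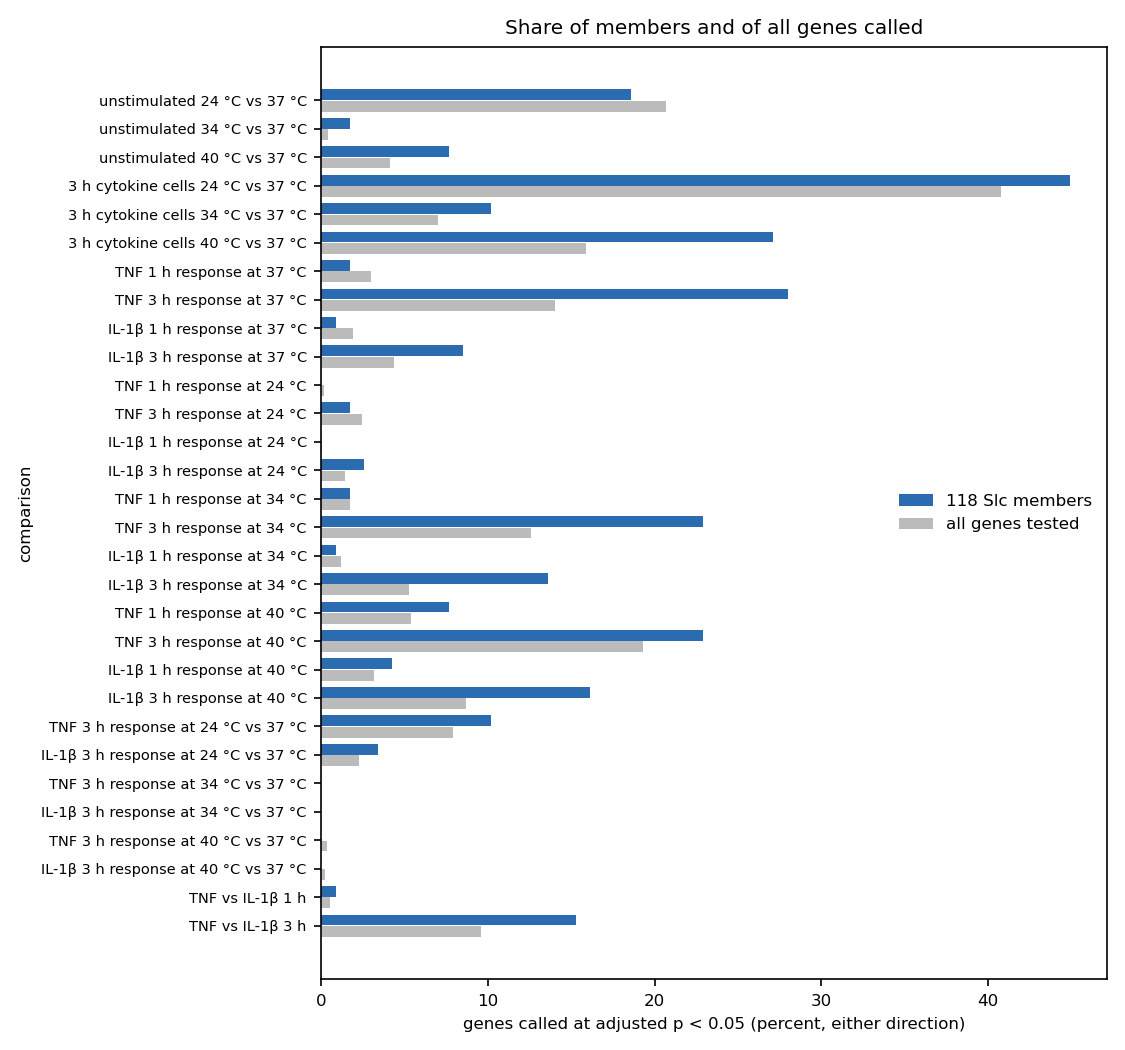
Percent of the 118 members (blue) and of all 10122 genes (grey) called at an adjusted p below 0.05 in each of 30 comparisons, both directions together. The members' share stands highest in cells given a cytokine for 3 h at 24 against 37 °C, at 44.9% beside 40.8%, and at 28.0% beside 14% for TNF-α for 3 h at 37 °C.

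Amino acid carriers that were called lay mostly lower at 24 °C than at 37 °C and, after 3 h of a cytokine, mostly lower at 40 °C and higher at 34 °C. In unstimulated cells 8 of the 19 were lower and 1 higher at 24 °C than at 37 °C, 47.4% beside 20.7% of all genes, with a median difference of -0.30 on the log2 scale against -0.03 for all genes. In cells given a cytokine for 3 h, 11 were lower and 2 higher at 24 °C (median -0.37), 5 higher and none lower at 34 °C (median 0.22), and 9 lower and 1 higher at 40 °C (median -0.25). These are 68.4%, 26.3% and 52.6% of the 19, beside 40.8%, 6.98% and 15.9% of all genes. With 1 library left out, 8 to 10 were lower and 0 or 1 higher at 40 °C. Median differences of all genes in those 3 comparisons were -0.03, -0.02 and 0.01. TNF-α for 3 h at 37 °C raised 8 and lowered 2 of the 19 (52.6% beside 14%, median 0.20, all genes -0.04), or 6 to 8 and 1 or 2 with 1 library left out.

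The large neutral amino acid carrier Slc7a5, a leucine importer that works as a pair with Slc3a2, followed this order. Its unstimulated FPKM were 85.34, 82.66 and 81.03 at 24 °C, 143.54, 164.76 and 148.80 at 34 °C, 112.83, 141.06 and 123.97 at 37 °C, and 103.98, 119.28 and 115.57 at 40 °C. After 3 h of TNF-α they were 83.15, 92.66 and 93.84 at 24 °C, 214.11, 191.98 and 230.29 at 34 °C, 153.84, 182.57 and 181.20 at 37 °C, and 106.34, 112.64 and 105.25 at 40 °C. With TNF-α the 4 temperatures did not overlap, and 34 °C was the highest. The averaged 3 h cytokine cells differed from 37 °C by -0.86 ± 0.07 (SE) at 24 °C, 0.36 ± 0.07 at 34 °C and -0.65 ± 0.07 at 40 °C, with adjusted p of 2.71e-13, 0.00105 and 6.91e-09. Without cytokine the difference at 24 °C was -0.59 (adjusted p = 3.84e-05). TNF-α for 3 h raised Slc7a5 by 0.45 ± 0.10 at 37 °C (adjusted p = 0.00124).

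Its heavy chain Slc3a2 moved less. After 3 h of TNF-α it stood at 164.06, 166.91 and 193.39 FPKM at 24 °C, 237.78, 227.09 and 233.25 at 34 °C, 204.40, 204.57 and 188.17 at 37 °C, and 143.14, 161.30 and 149.15 at 40 °C. The 34 °C libraries were all above and the 40 °C libraries all below those at 37 °C, while 24 °C and 37 °C overlapped. In the averaged 3 h cytokine cells the differences from 37 °C were 0.23 at 34 °C (adjusted p = 0.0121) and -0.36 at 40 °C (adjusted p = 2.78e-05), and -0.13 at 24 °C (adjusted p = 0.0766).

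The exchanger Slc7a11 imports cystine for glutathione synthesis. Its unstimulated FPKM were 2.26, 4.11 and 2.76 at 37 °C and rose to 8.28, 8.61 and 7.75 after 3 h of TNF-α. At 34 °C, TNF-α for 3 h gave 12.66, 13.88 and 12.17 FPKM, at 40 °C 4.09, 5.21 and 4.88, and at 24 °C 1.61, 2.83 and 3.13. All libraries given TNF-α at 37 °C exceeded the unstimulated ones, and the 4 temperatures given TNF-α did not overlap. TNF-α for 3 h raised Slc7a11 by 1.21 ± 0.20 at 37 °C (adjusted p = 1.1e-05) and by 1.28 at 34 °C (adjusted p = 5.26e-06), and IL-1β by 0.96 and 1.02. In the averaged 3 h cytokine cells it was lower at 24 °C by -1.38 (adjusted p = 7.13e-11), higher at 34 °C by 0.59 (adjusted p = 0.0063) and lower at 40 °C by -0.68 (adjusted p = 0.000631). The TNF-α response at 24 °C was smaller than at 37 °C by -1.17 ± 0.29 (interaction term, adjusted p = 0.00524).

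Slc7a2, an importer of arginine and other cationic amino acids, had the largest response of any member. It stood at 5.49, 4.73 and 2.97 FPKM in unstimulated cells at 37 °C and at 69.02, 43.20 and 34.42 FPKM after 3 h of TNF-α. After 3 h of IL-1β the values were 25.13, 12.18 and 11.19 FPKM. The 3 groups did not overlap. TNF-α raised it by 3.18 ± 0.26 (adjusted p = 1.54e-13) and IL-1β by 1.61 ± 0.26 (adjusted p = 2.21e-05).

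Rises of Slc7a2 after 3 h of TNF-α were 3.26 at 34 °C and 3.46 at 40 °C, with adjusted p of 9.16e-14 and 1.08e-14. At 24 °C, unstimulated cells had 4.45, 5.78 and 4.26 FPKM and cells given TNF-α for 3 h 6.07, 4.36 and 5.01 FPKM, which overlap. The response at 24 °C differed from that at 37 °C by -3.10 ± 0.37 for TNF-α (adjusted p = 1.91e-08) and by -1.97 ± 0.37 for IL-1β (adjusted p = 0.00057). Averaged over the 4 temperatures, Slc7a2 was higher after 3 h of TNF-α than of IL-1β by 1.17 ± 0.13 (adjusted p = 2.07e-09). Already at 1 h of TNF-α, values of 13.61, 9.82 and 9.22 FPKM at 37 °C lay above the unstimulated ones, a rise of 1.15 (adjusted p = 0.00344) that was not called without unstimulated replicate 3 or TNF-α 1 h replicate 1, at adjusted p up to 0.0732. Antisense to Slc7a2, another annotated gene shares 6.95% of its exon bases, and the strandedness of the libraries is not given in the sources used here.

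**Figure D3:**
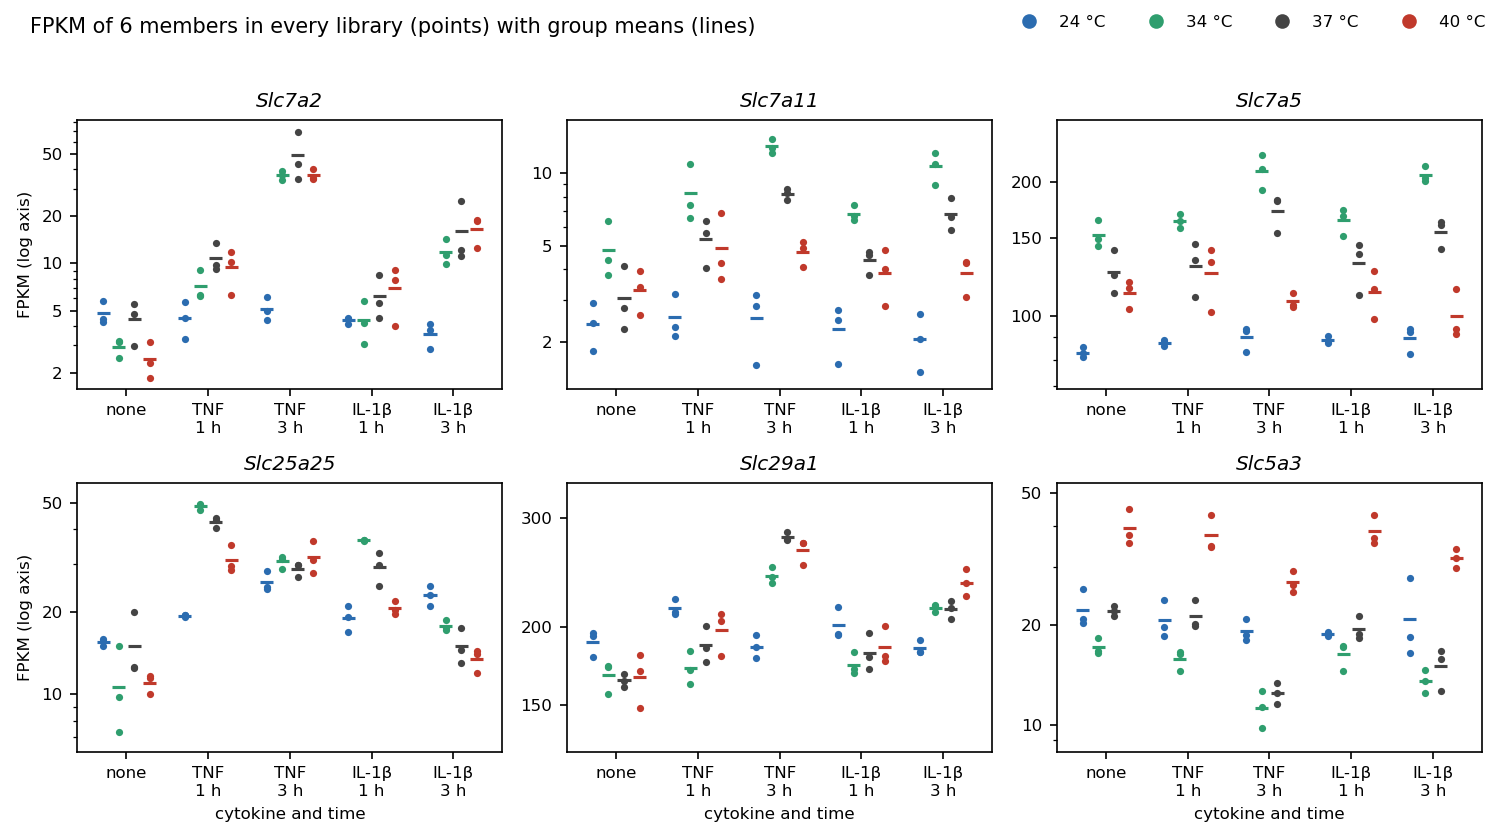
FPKM (log axis) of 6 members in each of the 60 libraries (points) with group means (lines), by cytokine and time, coloured by temperature. Slc7a2 lies between 4.36 and 6.07 FPKM at 24 °C after 3 h of TNF-α while the other temperatures reach 34.22 to 69.02 FPKM, and Slc5a3 is highest at 40 °C in every condition.

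The neutral amino acid carrier Slc43a2 (LAT4) had 8.47, 6.37 and 6.37 FPKM in unstimulated cells at 37 °C and 21.18, 15.53 and 13.66 after 3 h of TNF-α. The groups did not overlap. The rise was 1.13 ± 0.18 at 37 °C (adjusted p = 5.25e-06), 0.98 at 34 °C (adjusted p = 7.85e-05) and 1.37 at 40 °C (adjusted p = 7.21e-08). Antisense genes share 9.18% of its exon bases.

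The mRNA of Slc7a1, the constitutive carrier of cationic amino acids, was likewise highest at 34 °C after 3 h of TNF-α, at lower levels than Slc7a5. The 3 h TNF-α values of Slc7a1 were 22.95, 19.93 and 22.11 FPKM at 24 °C, 39.13, 36.37 and 40.69 at 34 °C, 34.08, 31.84 and 33.05 at 37 °C, and 24.08, 24.69 and 28.20 at 40 °C. Those at 34 °C were all above and those at 24 °C and 40 °C all below the 37 °C values. The averaged 3 h cytokine cells differed from 37 °C by -0.37 at 24 °C (adjusted p = 0.000107), 0.34 at 34 °C (adjusted p = 0.00251) and -0.40 at 40 °C (adjusted p = 0.000142).

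The neutral amino acid exchangers Slc1a5, a glutamine carrier, and Slc1a4 were lower at both ends of the temperature range. For Slc1a5 the 3 h cytokine cells were below 37 °C by -0.34 at 24 °C (adjusted p = 0.000353) and by -0.44 at 40 °C (adjusted p = 5.66e-05). For Slc1a4 the same differences were -0.48 (adjusted p = 4.15e-07) and -0.41 (adjusted p = 4.67e-05). The glycine importer Slc6a9 was lower by -0.62 (adjusted p = 3.53e-05) and -0.42 (adjusted p = 0.0117). Antisense to Slc6a9, Ccdc24, at a mean of 0.664 FPKM, shares 27.8% of its exon bases.

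Some amino acid carriers went the other way. The glutamate importer Slc1a3 stood at 7.60, 10.72 and 12.33 FPKM at 24 °C and at 3.53, 6.32 and 4.08 at 37 °C without cytokine. The groups did not overlap, and the difference was 1.00 ± 0.21 (adjusted p = 0.000424), with 1.18 ± 0.15 in the 3 h cytokine cells (adjusted p = 8.42e-09). Among the carriers lower at 24 °C without cytokine, Slc7a6, which exchanges cationic for neutral amino acids, had 20.76, 20.96 and 19.61 FPKM at 24 °C and 39.44, 37.56 and 38.40 FPKM at 37 °C. These groups were far apart, by -0.88 ± 0.13 (adjusted p = 3.42e-06). The glutamate importer Slc1a6 was lower by -0.83 ± 0.17 (adjusted p = 0.000339), with a range of 1.05 to 1.35 FPKM against 2.39 to 3.32 FPKM. It averaged 2.47 FPKM over the 60 libraries, so its place among the members rested partly on its higher groups.

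The taurine importer Slc6a6 fell after 3 h of TNF-α at 37 °C and 40 °C. Its FPKM at 37 °C were 145.03, 151.09 and 159.68 without cytokine and 111.52, 99.10 and 110.19 after 3 h of TNF-α. At 24 °C they were 124.44, 100.75 and 122.54 without and 136.59, 119.45 and 135.25 with TNF-α for 3 h, which overlap. TNF-α lowered Slc6a6 by -0.50 ± 0.07 at 37 °C (adjusted p = 1.01e-06) and -0.52 ± 0.07 at 40 °C (adjusted p = 5.03e-07). The response at 24 °C differed from that at 37 °C by 0.68 ± 0.11 for TNF-α (adjusted p = 7.08e-06) and by 0.47 ± 0.11 for IL-1β (adjusted p = 0.00593).

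Genes that ATF4 is known to raise were read from a list of 26 that holds no member, of which 25 were measured. Without cytokine, 6 of the 25 were higher and none lower at 40 °C than at 37 °C (24% beside a background of 4.14%, median 0.06), where of the amino acid carriers none was higher and 2 were lower (median -0.13). With 1 library left out 3 to 6 were higher, the fewest without 40 °C replicate 1. At 34 °C 5 were higher and none lower (20% beside 0.366%), or 2 or 3 higher with 1 library left out, and at 24 °C 2 were higher and 5 lower (28% beside 20.7%), with 1 lower without 37 °C replicate 2. In cells given a cytokine for 3 h, 19 of the 25 were lower and 2 higher at 24 °C (median -0.36), 8 higher and 1 lower at 34 °C (median 0.14), and 15 lower and 2 higher at 40 °C (median -0.24), where 1 or 2 were higher with 1 library left out. These are 84%, 36% and 68% of the 25, beside 40.8%, 6.98% and 15.9% of all genes. The 2 that were higher at 24 °C were Atf3, a stress transcription factor, by 1.84, and Ddit4, an inhibitor of mTORC1, by 1.41, while Cth, an enzyme of cysteine synthesis, was lower by -1.34. At 34 °C the largest differences were Ddit3, another stress transcription factor, by 0.96, Atf3 by 0.95 and Chac1, which degrades glutathione, by 0.65. At 40 °C they were Trib3, an inhibitor of ATF4, by -1.18, Cth by -1.05 and Vldlr, a lipoprotein receptor, by -0.88. TNF-α for 3 h at 37 °C raised 15 of the 25 and lowered none, 60% beside 14%, with 10 to 15 rising when 1 library was left out, the fewest without TNF-α 3 h replicate 2. The relation of these genes to the carriers was not tested.

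Targets of NRF2, the transcription factor of the response to oxidants that also raises Slc7a11, were read from 15 genes, 13 of them measured. In 3 h cytokine cells 6 were higher and none lower at 34 °C, 5 higher and 1 lower at 24 °C, and 4 lower and none higher at 40 °C, which is 46.2%, 46.2% and 30.8% beside 6.98%, 40.8% and 15.9% of all genes. At 34 °C the largest differences were Hmox1, which degrades heme, by 0.84, Osgin1 by 0.71 and the thioredoxin reductase Txnrd1 by 0.64. At 24 °C Slc7a11 was lower while Osgin1 was higher by 0.96. The 1 lower gene at 24 °C was lost without TNF-α 3 h replicate 1 or 2 or IL-1β 3 h replicate 3 at 37 °C, or without TNF-α 3 h replicate 1 or IL-1β 3 h replicate 1 at 24 °C.

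**Figure D4:**
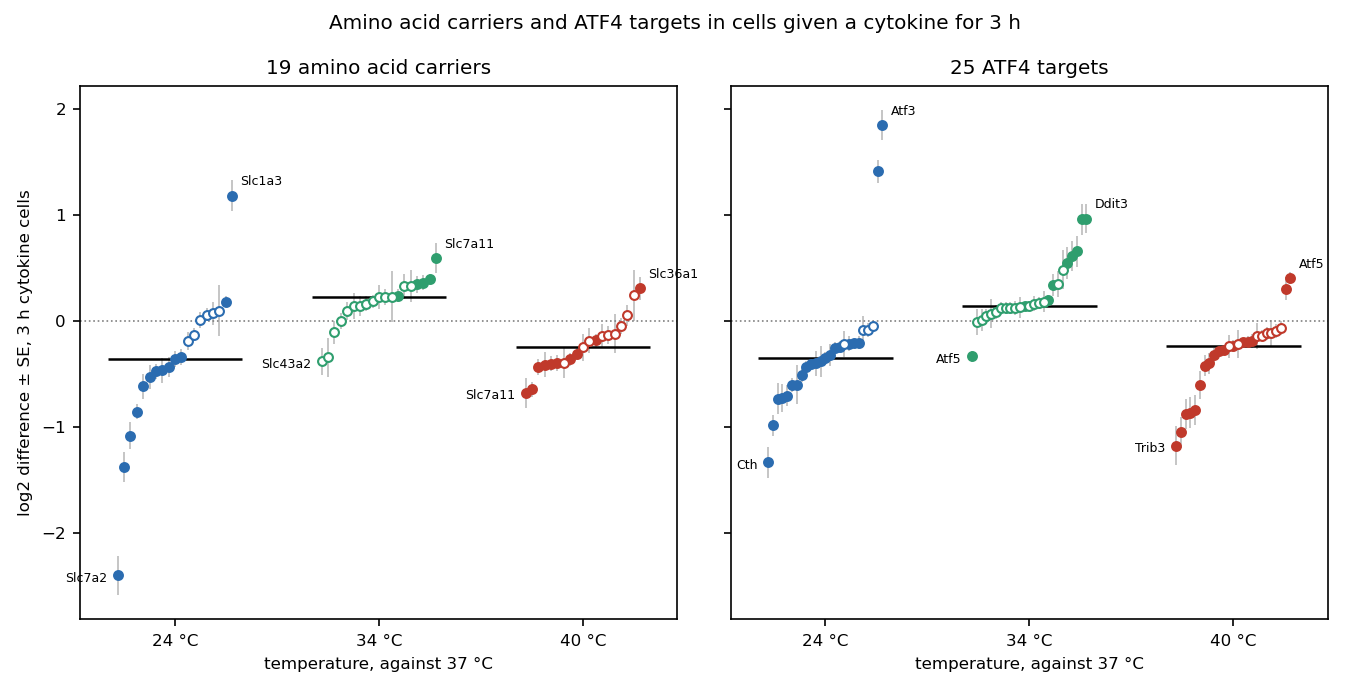
Log2 difference from 37 °C with its SE in cells given TNF-α or IL-1β for 3 h, for 19 amino acid carriers and 25 ATF4 targets, sorted within each temperature with the lowest and highest gene named; filled points were called at an adjusted p below 0.05 and horizontal lines are medians. Medians lie below 0 at 24 °C and 40 °C and above 0 at 34 °C in both panels.

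Of the 14 sugar and monocarboxylate carriers, 2 rose and 3 fell after 3 h of TNF-α at 34 °C, 35.7% beside 12.6% of all genes, with a median of -0.41 against -0.05. With 1 of the 6 libraries left out at most 1 rose, and none without unstimulated replicate 2 or 3 or TNF-α 3 h replicate 3, while 2 to 6 fell, the most without unstimulated replicate 2. After 3 h of TNF-α at 37 °C, 2 rose and 2 fell, 28.6% beside 14%, with 1 or 2 rising and 1 to 3 falling when 1 library was left out. Just 1 rose without unstimulated replicate 3 or TNF-α 3 h replicate 1, and just 1 fell without unstimulated replicate 1 or 3 or TNF-α 3 h replicate 2 or 3. In 3 h cytokine cells at 24 °C, 2 were higher and 4 lower, 42.9% beside 40.8%. The glucose carrier Slc2a1 (GLUT1) had 19.30, 15.16 and 16.12 FPKM in unstimulated cells at 37 °C and 27.35, 25.38 and 27.44 after 3 h of TNF-α. At 40 °C it went from 16.75, 14.16 and 14.72 to 26.98, 27.75 and 28.15 FPKM. Groups with and without TNF-α did not overlap at either temperature. The rises were 0.64 ± 0.12 (adjusted p = 4.48e-05) and 0.82 ± 0.12 (adjusted p = 3.13e-07), and IL-1β at 40 °C gave 0.86 ± 0.12 (adjusted p = 3.63e-07). In 3 h cytokine cells Slc2a1 was lower at 24 °C than at 37 °C by -0.45 (adjusted p = 1.55e-05).

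The lactate and pyruvate carrier Slc16a1 rose more with IL-1β than with TNF-α. It stood at 11.94, 12.86 and 10.51 FPKM without cytokine at 37 °C and at 21.15, 17.50 and 14.68 after 3 h of IL-1β. The groups did not overlap. IL-1β raised it by 0.55 ± 0.10 at 37 °C (adjusted p = 0.000203), 0.54 at 34 °C (adjusted p = 0.000258) and 0.65 at 40 °C (adjusted p = 5.69e-06), and over the 4 temperatures TNF-α stood -0.21 ± 0.05 below IL-1β (adjusted p = 0.00309).

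Slc5a3 is the sodium-coupled importer of the osmolyte myo-inositol. Of the 3 members called higher after 2 h at 40 °C, it was the only one whose call held without any 1 library. It had 22.03, 22.90 and 21.38 FPKM at 37 °C and 37.34, 35.49 and 44.93 at 40 °C, a difference of 0.79 ± 0.13 (adjusted p = 1.87e-05), and the groups did not overlap. After 3 h of TNF-α it fell at 37 °C to 13.42, 11.57 and 12.47 FPKM, all below the unstimulated values, by -0.78 ± 0.13 (adjusted p = 5.13e-06). At 40 °C TNF-α lowered it by -0.52 (adjusted p = 0.00162), to 29.06, 26.53 and 25.23 FPKM, all still above every 37 °C library given TNF-α for 3 h. In the averaged 3 h cytokine cells Slc5a3 was higher at 40 °C by 1.05 ± 0.09 (adjusted p = 1.52e-12) and at 24 °C by 0.50 ± 0.09 (adjusted p = 9.16e-06). Its exons share 1.46% of their bases with Mrps6 on the same strand, a gene not analysed here.

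Slc16a4, a member of the monocarboxylate carrier family, was low at 24 °C in every condition. Without cytokine it had 3.05, 2.31 and 2.55 FPKM at 24 °C and 9.58, 5.61 and 6.82 at 37 °C, apart from each other, by -1.17 ± 0.20 (adjusted p = 1.56e-05). The highest of the 15 libraries at 24 °C held 3.64 FPKM. No 1 library ended this call. Of 12 measured genes of glycolysis, 5 were higher and 1 lower in 3 h cytokine cells at 24 °C, 50% beside 40.8% of all genes, with 3 higher without TNF-α 3 h replicate 3 at 37 °C.

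In the averaged 3 h cytokine cells 3 of the 28 mitochondrial carriers were higher and 6 lower at 24 °C, 32.1% beside 40.8% of all genes, and 2 higher and 6 lower at 40 °C, 28.6% beside 15.9%. Leaving out 1 library gave 3 to 5 higher at 24 °C, and 1 higher at 40 °C without TNF-α 3 h replicate 3 or IL-1β 3 h replicate 3 at 37 °C or TNF-α 3 h replicate 2 at 40 °C. The phosphate carrier Slc25a3 was called in no comparison. Slc25a5 was lower by -0.17 in the 3 h cytokine cells at 24 °C, while Slc25a4 was higher there by 0.19 (adjusted p = 0.000399) and lower at 40 °C by -0.27 (adjusted p = 9.24e-06).

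Slc25a25, a calcium-regulated exchanger of ATP-magnesium and phosphate, was the only member called at 1 h of IL-1β at 37 °C and 34 °C. It had 12.46, 12.52 and 19.94 FPKM in unstimulated cells at 37 °C, 43.07, 40.47 and 44.14 after 1 h of TNF-α, and 29.62, 26.80 and 29.53 after 3 h. After 1 h of IL-1β it had 29.63, 24.87 and 32.65 FPKM and after 3 h 17.41, 13.05 and 14.48. Each group but the last stood clear of the unstimulated libraries, and for each cytokine every 1 h value exceeded every 3 h value. TNF-α for 1 h raised it by 1.48 ± 0.14 at 37 °C (adjusted p = 2.67e-11), 2.14 at 34 °C (adjusted p = 1.57e-16) and 1.41 at 40 °C (adjusted p = 1.03e-10).

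At 24 °C the same gene, Slc25a25, had 15.58, 15.02 and 15.95 FPKM without cytokine, 19.06, 19.44 and 19.54 after 1 h of TNF-α and 24.25, 24.61 and 28.27 after 3 h. The 3 groups followed one another without overlap, so that its highest group at 24 °C was the 3 h group, where at 37 °C and 34 °C it was the 1 h group. Of these rises with TNF-α only that at 3 h was called, at 0.69 ± 0.14 (adjusted p = 0.00142), and the difference between temperatures at 1 h was not tested. Over the 4 temperatures it was higher with TNF-α than with IL-1β by 0.38 at 1 h (adjusted p = 0.000725) and 0.74 at 3 h (adjusted p = 1.56e-11). It was the single member called between the cytokines at 1 h (background 0.524%, 0.415% higher). On the opposite strand Naif1, at a mean of 3.08 FPKM, shares 4.82% of its exon bases.

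Other mitochondrial carriers moved with temperature. The pyrimidine nucleotide carrier Slc25a36 had 14.20, 14.38 and 13.71 FPKM at 24 °C and 25.67, 29.38 and 26.37 at 37 °C without cytokine, well separated, by -0.90 ± 0.17 (adjusted p = 0.000145). The dicarboxylate carrier Slc25a10 went the other way, with 21.32, 20.27 and 18.34 FPKM at 24 °C and 13.10, 15.47 and 11.43 at 37 °C, by 0.56 ± 0.11 (adjusted p = 0.000127). Slc25a24, which like Slc25a25 exchanges ATP-magnesium for phosphate, was lower at 40 °C in the 3 h cytokine cells by -0.63 ± 0.07 (adjusted p = 5.7e-10). The mitochondrial iron importer Slc25a37 rose after 3 h of TNF-α by 0.43 at 37 °C (adjusted p = 0.00161) and 0.46 at 40 °C (adjusted p = 0.000634). Slc25a22, a glutamate carrier, reached 69.92 FPKM in TNF-α 3 h replicate 3 at 37 °C, against 4.73 to 17.19 FPKM in all other libraries. Its call of -0.92 for 3 h cytokine cells at 34 °C was lost without any of 7 libraries, that one included, where the smallest difference was -0.46.

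The nucleoside carrier Slc29a1 (ENT1) combined a high level with a small spread. It had 164.03, 168.61 and 160.61 FPKM at 37 °C without cytokine and 284.86, 277.86 and 276.90 after 3 h of TNF-α, far from overlapping. The rise was 0.76 ± 0.06 at 37 °C (adjusted p = 2.94e-13), 0.53 at 34 °C (adjusted p = 1.25e-08) and 0.68 at 40 °C (adjusted p = 9.69e-12). At 24 °C it had 179.14, 195.94 and 193.83 FPKM without and 194.35, 178.29 and 186.23 with TNF-α for 3 h, which overlap. The responses at 24 °C and 37 °C differed by -0.79 ± 0.09 for TNF-α (adjusted p = 8.86e-09) and -0.41 ± 0.09 for IL-1β (adjusted p = 0.00478). Of the 8 carriers of nucleotide sugars, acetyl-CoA and nucleosides, 5 were lower and 1 higher in 3 h cytokine cells at 24 °C, 75% beside 40.8% of all genes (23.3% lower), and 3 were lower without IL-1β 3 h replicate 3 at 37 °C. The higher one, the lysosomal nucleoside carrier Slc29a3, was not called without TNF-α 3 h replicate 3 or IL-1β 3 h replicate 3 at 37 °C or TNF-α 3 h replicate 3 at 24 °C. Among them the acetyl-CoA carrier Slc33a1 was lower by -0.38, and Slc35a4, at 84.9 FPKM, was called in no comparison.

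Of the divalent metal carriers, Slc11a2 (DMT1), an importer of iron and manganese, rose most with IL-1β. At 40 °C it had 20.72, 14.55 and 18.09 FPKM without cytokine, 49.44, 43.08 and 52.79 after 3 h of IL-1β, and 26.31, 29.32 and 28.92 after 3 h of TNF-α. These 3 groups did not overlap. IL-1β raised it by 1.40 ± 0.19 at 40 °C (adjusted p = 1.78e-07) and 1.19 ± 0.19 at 34 °C (adjusted p = 1.02e-05). At 37 °C unstimulated cells had 23.73, 16.56 and 29.52 FPKM and IL-1β for 3 h gave 45.84, 43.18 and 30.48, which stand just apart, and the rise of 0.77 (adjusted p = 0.00648) was lost without unstimulated replicate 2 or IL-1β 3 h replicate 1 or 2, at 0.55 to 0.95 over the fits without 1 library. Over the 4 temperatures Slc11a2 was lower with TNF-α than with IL-1β at 3 h by -0.37 ± 0.09 (adjusted p = 0.00487). Antisense genes share 6.33% of its exon bases.

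The magnesium carrier Slc41a3 fell at 40 °C. Its FPKM there were 5.68, 4.98 and 4.94 without cytokine, 2.53, 2.27 and 2.94 after 3 h of TNF-α and 2.58, 3.16 and 3.49 after 3 h of IL-1β. Both cytokine groups lay below all unstimulated values. The falls were -0.79 ± 0.15 (adjusted p = 7.57e-05) and -0.61 ± 0.15 (adjusted p = 0.00493).

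All 11 zinc carriers were called in at least 1 comparison, beside 62.7% of all genes, most often in the cold. In 3 h cytokine cells at 24 °C 7 were lower and 2 higher than at 37 °C, 81.8% beside 40.8% of all genes (23.3% lower, 17.6% higher), and 1 was higher without TNF-α 3 h replicate 2 or IL-1β 3 h replicate 1 at 24 °C. The importer Slc39a1 (ZIP1) had 85.62, 93.27 and 97.02 FPKM at 24 °C and 128.61, 124.49 and 126.41 at 37 °C after 3 h of TNF-α. The groups stood clear of each other, and over both cytokines the difference was -0.40 ± 0.04 (adjusted p = 3.72e-10). The exporter Slc30a1 (ZnT1) was instead higher at 24 °C by 0.45 (adjusted p = 0.00342) and at 34 °C by 0.52 (adjusted p = 0.00595). At 34 °C the importer Slc39a10 was lower by -0.44 (adjusted p = 0.00473).

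Metallothioneins, which bind zinc and copper in the cytosol, were in a list of 12 genes of metal handling, 8 of them measured. Mt2 averaged 2.78 FPKM in unstimulated cells at 37 °C and 56.5 FPKM after 3 h of TNF-α, a rise of 3.90, and Mt1 rose by 2.30. These were the 2 of the 8 called there, 25% beside 14% of all genes. The zinc importer Slc39a14 rose by 0.49 (adjusted p = 0.00471), a call lost without unstimulated replicate 3 or TNF-α 3 h replicate 1 at 37 °C, and Slc30a1 stood at 3.17, 3.61 and 3.04 FPKM without and 3.17, 3.36 and 3.32 with TNF-α.

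Of 15 exchangers and cotransporters of inorganic ions, 5 were called in at least 1 comparison, beside 62.7% of all genes. The sodium-coupled phosphate importer Slc20a1 had 21.45, 25.59 and 17.66 FPKM at 37 °C without cytokine, 36.92, 34.53 and 31.36 after 3 h of TNF-α and 25.99, 24.34 and 22.89 after 3 h of IL-1β. TNF-α stood clear of both other groups, which overlapped each other. The rise with TNF-α was 0.66 ± 0.11 at 37 °C (adjusted p = 1.5e-05) and 0.63 at 40 °C (adjusted p = 2.36e-05), and TNF-α exceeded IL-1β over the 4 temperatures by 0.42 ± 0.06 (adjusted p = 1.68e-07). Its relative Slc20a2 was lower at 40 °C without cytokine by -0.54 ± 0.12 (adjusted p = 0.00335), with 24.87, 26.49 and 22.80 FPKM against 35.31, 35.27 and 38.72 at 37 °C, which do not overlap. Among 23 ATP-driven pumps and ABC transporters, which are no members, 3 were higher and 6 lower in 3 h cytokine cells at 24 °C, 39.1% beside 40.8% of all genes, with 1 higher without IL-1β 3 h replicate 2 at 24 °C. The calcium pump Atp2b4 differed most at -1.51, followed by Abca1, which exports cholesterol, at 0.50 and the proton pump subunit Atp6v1b2 at -0.41.

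The choline carrier Slc44a2 and the riboflavin importer Slc52a3 fell after 3 h of TNF-α at 37 °C. Slc44a2 went from 43.77, 43.54 and 48.79 to 32.01, 29.17 and 34.15 FPKM in 3 h at 37 °C, without overlap. Falls were -0.50 ± 0.08 at 37 °C (adjusted p = 5.72e-06), -0.41 at 34 °C (adjusted p = 0.000185) and -0.55 at 40 °C (adjusted p = 7.55e-07). Slc52a3 was at 2.66, 2.00 and 2.09 FPKM without cytokine and at 1.00, 0.80 and 0.73 after 3 h of TNF-α at 37 °C, apart from each other but near the limit of 2 FPKM. It fell by -0.82 ± 0.18 (adjusted p = 0.000596).

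**Figure D5:**
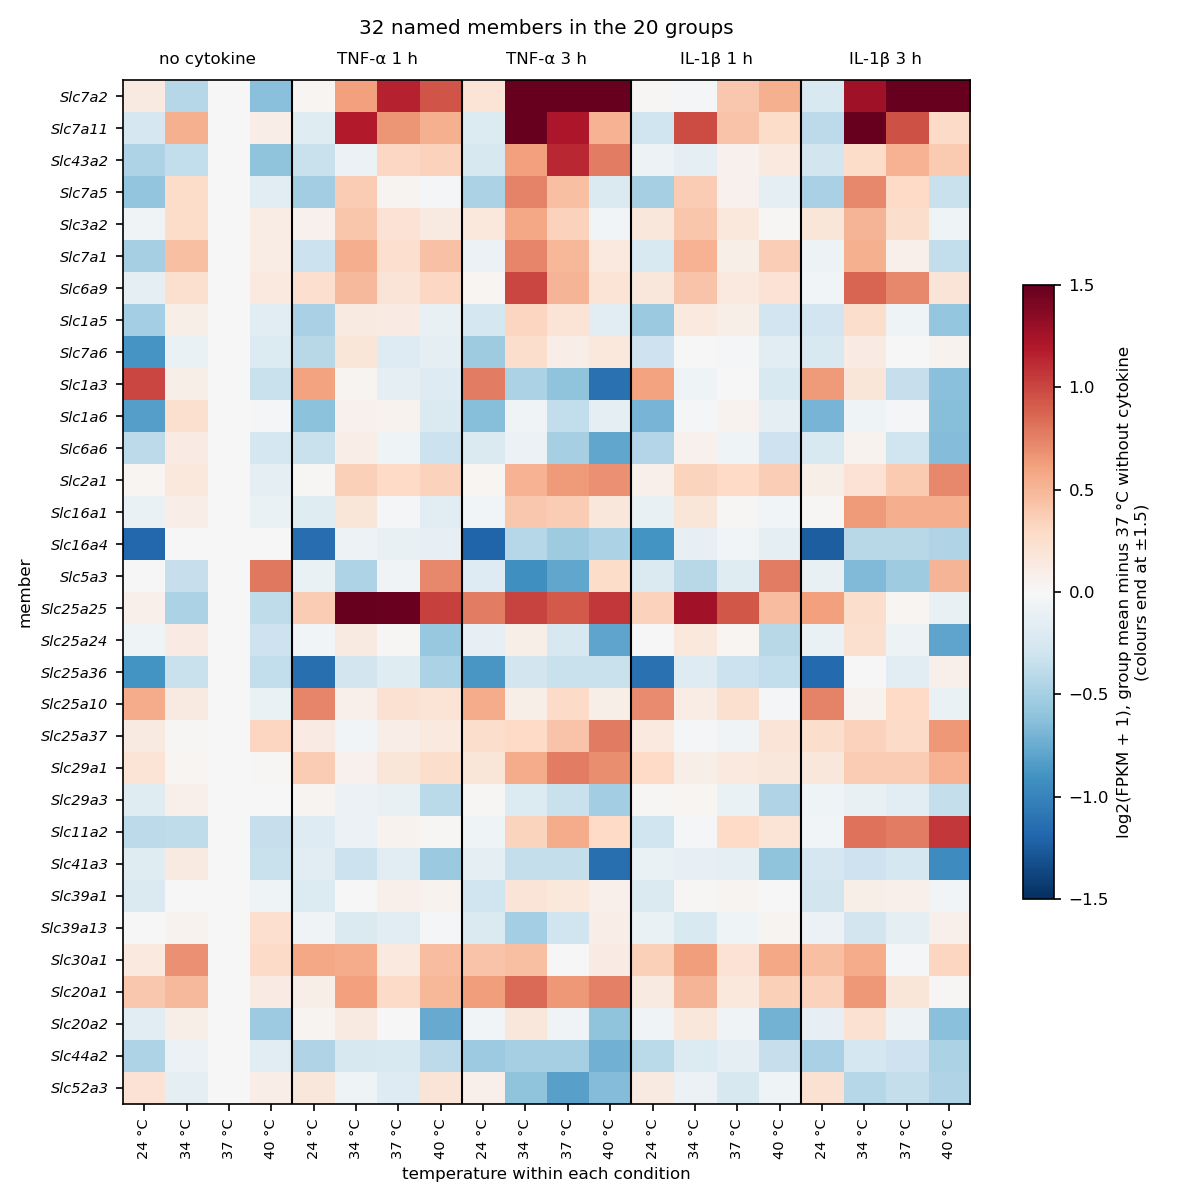
Mean log2(FPKM + 1) of 32 named members in each of the 20 groups, minus the mean of unstimulated cells at 37 °C; red is higher, blue lower, and colours end at ±1.5. Slc7a2, Slc7a11 and Slc43a2 are red after 3 h of TNF-α at 34, 37 and 40 °C and pale or blue at 24 °C, and Slc16a4 and Slc25a36 are at their darkest blue at 24 °C.

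Whether a 3 h response differed between temperatures was tested as an interaction against 37 °C. At 24 °C it differed for 12 members with TNF-α (background 7.92%), 5 upward and 7 downward (3.82% and 4.1%), and for 4 with IL-1β (background 2.28%), 1 upward and 3 downward (1.06% and 1.23%). For no member did it differ at 34 °C, where 0% of all genes were called with either cytokine and 9 members for TNF-α and 8 for IL-1β had an unadjusted p under 0.05 in limma. At 40 °C no member was called either, beside backgrounds of 0.306% and 0.188%, with 12 and 17 members at an unadjusted p under 0.05. An adjusted p above the threshold does not show that the responses were alike.

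Between the cytokines, averaged over the 4 temperatures, 18 members differed at 3 h, 9 higher and 9 lower with TNF-α than with IL-1β. That is 15.3% beside a background of 9.57% (4.81% higher, 4.76% lower), and with rescaled libraries the split was 10 and 4. Slc7a2, Slc25a25 and Slc20a1 led those higher with TNF-α, and Slc11a2 those higher with IL-1β. These contrasts set 12 libraries against 12 and share none of the unstimulated ones.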

How the data were processed

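RNA of 60 libraries in 20 groups was sequenced, and the authors deposited FPKM per gene in 1 table, named as filtered. Per the submitters' processing notes, the tools were RSEM 1.3.3, STAR 2.7.11b and edgeR, and the build was GRCm39. The gene identifiers all occur in GENCODE M21, which was used with RefSeq promoter windows (GRCm38.p6) for overlaps and sequences. FPKM carry no read depth, which was estimated from the spacing of low values.

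Values were tested as log2(FPKM + 1) with limma 3.58.1 in R 4.3.3 (trended variance, 20 group means, 40 residual degrees of freedom), two-sided, with Benjamini-Hochberg adjustment over 10122 genes. The procedure was run on simulated independent noise with changes set in some genes. That noise held no shared deviation of same-numbered libraries, so the run does not test its effect on the p-values. Replicates are described as biological, with no statement on separate cultures, so p-values measure the spread between these samples. Alternatives were a pseudocount of 0.1, adjustment over the 8140 genes with a mean of at least 2 FPKM, rescaled libraries, a replicate block and leaving out each library. Exon overlap with another gene was found for 38 members.

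Members and lists were chosen with earlier results of these data known. Named genes are, per comparison, the 4 called members with the largest rise or fall, the 10 highest members, those nearest the 2 FPKM limit and a set of well-known carriers, and for other lists the 3 called genes with the largest differences. Outside this rule Slc1a4, Slc50a1, Slc37a4, Slc7a6os, Tagln, Des and Osgin1 at 24 °C were named after their values were seen. So were the fibroblast markers Vim, Col1a1, Col1a2, Dcn and Lum.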

Additional observations from a re-analysis of the deposited data

Results flagged for a closer look

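For 16 terms, the response to 3 h of a cytokine at 24 °C differed from that at 37 °C by the interaction test in limma (adjusted p below 0.05, on the log2(FPKM + 1) scale). With IL-1β these were Slc7a2 at -1.97, Slc7a11 at -1.10, Slc29a1 at -0.41 and Slc6a6 at 0.47. The Slc7a11 term was not called without any of 5 libraries: unstimulated replicate 1 or 3 or IL-1β 3 h replicate 2 at 37 °C, and unstimulated replicate 1 or IL-1β 3 h replicate 2 at 24 °C.

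With TNF-α the responses of Slc7a2 at -3.10, Slc7a11 at -1.17, Slc43a2 at -0.90, Slc29a1 at -0.79, Slc7a6os at -0.65, Slc2a1 at -0.63 and the glutathione carrier Slc25a39 at -0.38 were smaller or more negative at 24 °C. Those of Slc6a6 at 0.68, Slc5a3 at 0.58, Slc29a3 at 0.54, Slc10a7 at 0.48 and Slc44a2 at 0.41 were larger or less negative. The Slc2a1 term was lost without TNF-α 3 h replicate 1 at 24 °C, and that of Slc29a3 without TNF-α 3 h replicate 3 at 37 °C or at 24 °C. Those of Slc43a2, Slc44a2, Slc25a39, Slc5a3 and Slc10a7 were lost without any of 5, 4, 6, 7 and 9 libraries. The 24 °C libraries were the shallowest, at an average of 4.57 M estimated fragments, and the part of depth in these differences was not tested.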

How the results depend on the processing

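Of 322 called values of members, 3 were lost with a pseudocount of 0.1, 23 with rescaled libraries and none with the mean filter or the replicate block, none reversed under any alternative run, and 185 were kept without any 1 library. Leaving out 1 library gave, against 37 °C, 0 to 3 called members in unstimulated cells at 34 °C and 2 to 8 at 40 °C. For TNF-α at 1 h it gave 1 to 3 at 37 °C, 1 to 3 at 34 °C and 5 to 11 at 40 °C, and at 3 h 21 to 28 at 37 °C, 17 to 26 at 34 °C and 1 to 3 at 24 °C. For IL-1β at 3 h it gave 1 to 3 at 24 °C, 9 to 14 at 34 °C and 12 to 16 at 40 °C. The interactions at 3 h gave 0 to 1 for TNF-α at 40 °C and for IL-1β at 34 °C and 40 °C. Rescaling gave 4 for TNF-α at 1 h at 37 °C, and 1 for the TNF-α interaction at 40 °C, as did the mean filter. The causes were not tested.

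The replicate block gave 20 in place of 12 for 3 h cytokine cells at 34 °C, 1 for the TNF-α interaction at 40 °C and 2 between the cytokines at 1 h. Same-numbered libraries had a median correlation of deviations of 0.047 (570 pairs), against -0.024 for different numbers (1140 pairs). Deviations were taken from the mean of each group of 3, which ties the value for different numbers to that for same numbers. Over all temperatures 132 of the 570 same-numbered pairs were over 0.1, against 32 of the 1140 with different numbers. The 315 same-numbered pairs among 34, 37 and 40 °C had a median of 0.071, with 101 over 0.1. Between 24 °C and the rest the median of same-numbered pairs was 0.004. Pairs with different numbers were not counted apart by temperature. Same-numbered libraries thus deviated together somewhat, with the highest median among 34, 37 and 40 °C. The main fit did not take the numbers as pairs, so this shared deviation stayed in its residual spread. The replicate block took out a shift common to all libraries of a number. Depth limits the lowest members, 18 of which had a group mean under 2 FPKM.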
